A study of Mus musculus with 24 samples.

Results

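Whole adrenal glands of wild-type (WT) female mice (XX) were compared with those of WT males whose testes had been removed (GDX), 4 arrays against 4, out of 24 arrays in the series. Both groups were set beside 4 arrays of WT intact males (intact XY), so that genes that differ between the sexes in intact animals (dimorphic genes) could be followed after loss of the testes. All mice were 7 months old, on a mixed sv129-C57Bl/6 background, and the GDX males had lived without testes for the last 2 months. The labels name every array a biological replicate. Of 14411 genes tested over all arrays, the 13919 that lie on autosomes were counted, each by 1 probe set with a single gene symbol, the one with the highest mean.

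The animals called WT differed in their engineered alleles. Prkar1a encodes a regulatory subunit of protein kinase A, and the knockout mice of the series lose it by Cre recombinase expressed from the gene Cyp11b2, whose product makes aldosterone in the outer cortex. WT females carried 1 floxed Prkar1a allele and Cre (Prkar1a fl/+; cre/+). Among the GDX males, array 1 came from a mouse with neither a floxed allele nor Cre, arrays 2 and 3 from mice with Cre and no floxed allele, and array 4 from a mouse with the alleles of the females. Intact WT males carried 2 floxed alleles and no Cre. The Cre reporter mTmG was homozygous in all these mice except that of GDX array 2, which had 1 copy. Genotype and sex are therefore partly confounded between XX and GDX, and only GDX array 4 is matched to the females. Every female differed in genotype from every intact male, so sex and genotype cannot be told apart in the dimorphic genes. No GDX male had the genotype of the intact males, so gonadectomy and genotype cannot be told apart between these groups. Values against that array alone are given below.

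The adrenal cortex of the mouse is one of the organs in which the sexes differ. An inner X-zone, which borders the medulla, regresses in males at puberty under testicular androgens and lasts longer in females that have not been pregnant. Akr1c18, which encodes a dehydrogenase that inactivates progesterone, is its usual marker. Removal of the testes takes away their androgens, and an X-zone can form again in gonadectomised males.

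The labels held in every array. Xist, the RNA that coats the inactive X, was between 10.17 and 10.46 (log2 signal) in XX and between 3.19 and 3.54 in GDX arrays, and Eif2s3y, Kdm5d and Uty of the Y chromosome were high in GDX and intact XY arrays only. RNA of cortex and medulla was present throughout: the mean log2 level of 14 steroidogenic core genes lay between 10.13 and 10.31 in the 8 arrays, and that of 18 chromaffin markers between 8.58 and 9.23. Arrays of a group correlated at 0.989 to 0.995 across probe sets. A log2 value of 5 was taken as the level under which a gene is too dim to read. Precision is limited by the number of arrays.

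After loss of the testes the adrenals of both sexes differed in few autosomal genes. XX and GDX glands differed in 118 genes (0.848% of 13919) at a limma adjusted p of 0.05, the threshold used throughout, with 63 higher (0.453%) and 55 lower (0.395%) in XX. XX and intact XY glands differed in 1063 genes (7.64%), 509 higher (3.66%) and 554 lower (3.98%). The median size of the change over all autosomal genes was 0.08 on the log2 scale against GDX and 0.10 against intact XY. Of the 118 genes 25 differed at least 2-fold, 14 of them higher in XX, and the smallest called change was 0.25. In 113 of the 118 no XX array overlapped a GDX array, which was the case for 7.49% of all autosomal genes. At an unadjusted p under 0.05 there were 1591 genes (11.4%). The count of 118 fell to 67, 72 and 73 without XX array 1, 2 or 3 and to 71 and 53 without GDX array 1 or 2, and without GDX array 3 fewer genes were higher (48) than lower (54) in XX. In whole-gland RNA, fewer cells of a type and less RNA per cell cannot be told apart.

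Of the 1063 dimorphic genes, 70 remained called in the same direction against GDX males (6.59%). Without XX array 1, GDX array 1 or GDX array 2 there were 46, 43 and 42 such genes. The 70 were 45 of the 509 genes higher in XX and 25 of the 554 lower in XX. Another 4 were called in the opposite direction, and 989 were not called. Among those 989, 364 were called between GDX and intact XY, and 625 by neither comparison. Over all autosomal genes GDX and intact XY differed in 4.46%, with 1.95% higher and 2.51% lower in GDX. In all 364, GDX differed from intact XY in the direction of XX, which the definition of the class fixes. A called change the other way would have added to that between XX and intact XY, and XX and GDX would have been called. The median log2 change was 0.54 between GDX and intact XY and 0.04 between XX and GDX, which in part follows from how the class was formed. The count of 364 was 212 and 220 without GDX array 2 or 3 and 232, 183 and 169 without intact XY array 2, 3 or 4. Both comparisons share the XX arrays, and the GDX and intact XY arrays complete the triangle, so the counts are not independent of each other. In the 625 genes called by neither the median change aligned to the dimorphic direction was 0.19 between XX and GDX and 0.21 between GDX and intact XY, similar on each side. A gene not called against GDX was thus not shown to be equal. Among the 126 dimorphic genes that differed at least 2-fold, 27 (21.4%) remained called.

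**Figure D1:**
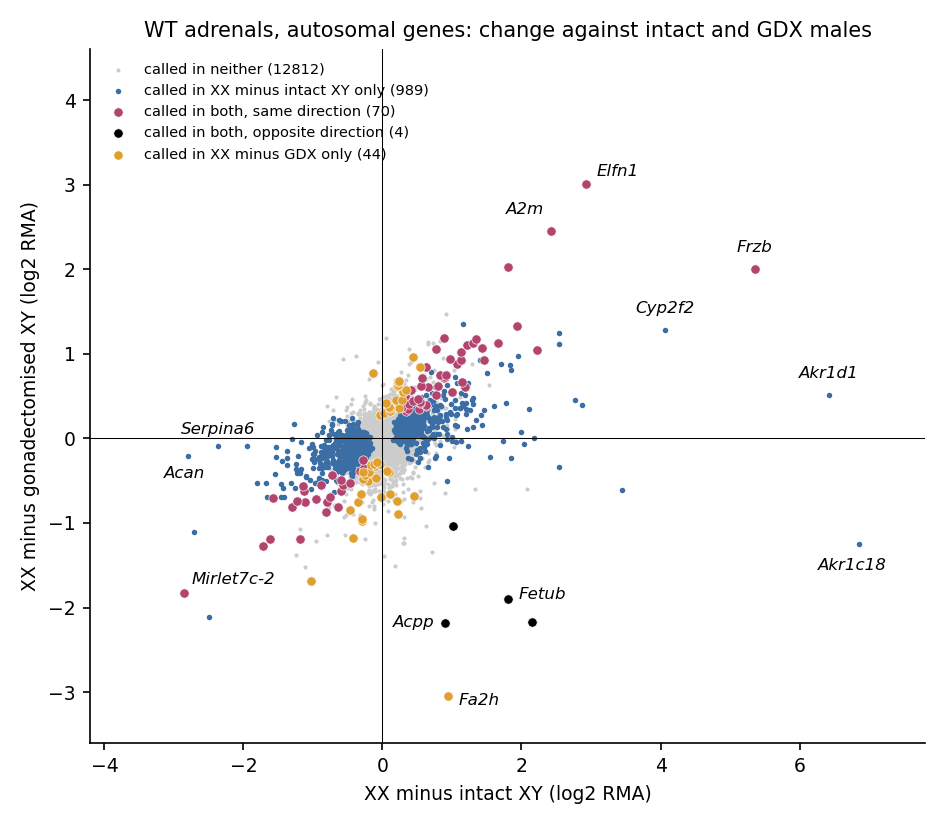
Change of each autosomal gene between WT XX and intact XY adrenals (horizontal axis, log2 RMA) against its change between WT XX and GDX adrenals (vertical axis, log2 RMA). Each point is 1 gene, coloured by where it was called at adjusted p 0.05. The 70 genes called in both with the same sign run along the diagonal, the 989 called only against intact XY lie mostly near the horizontal line, and Fa2h, Acpp and Fetub lie far below it. The axes share the XX arrays, so the slope of the cloud is not a result.

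Some microRNA genes were among those lower in XX than in GDX glands. MicroRNAs are short RNAs that pair with messenger RNAs through their seed, bases 2 to 8, and lower their output. The 4 called genes are Mirlet7c-2 on chromosome 15, Mir23a on chromosome 8, Mir23b on chromosome 13 and Mir99a on chromosome 16. Sequences and positions are from RefSeq (GRCm38.p6). The mature products are shown with the seed in capitals, because they show which target sites each gene's product reads:
mmu-let-7c-5p: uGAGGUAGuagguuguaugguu
mmu-miR-23a-3p: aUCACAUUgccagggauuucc
mmu-miR-99a-5p: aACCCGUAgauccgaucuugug
They lie on the plus strand at chr15:85706616-85706637, chr8:84208563-84208583 and chr16:77598940-77598961. The hairpins of Mir23a (chr8:84208518-84208592) and Mir23b (chr13:63300484-63300557), which lie on different chromosomes, hold the same 7-base seed string, here in capitals:
Mir23a hairpin: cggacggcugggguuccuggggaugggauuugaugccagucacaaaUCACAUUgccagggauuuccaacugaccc
Mir23b hairpin: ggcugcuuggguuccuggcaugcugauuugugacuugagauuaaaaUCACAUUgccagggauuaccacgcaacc
The seeds of the other mature products differ from each other.

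Mirlet7c-2 stood at 3.42, 3.04, 4.46 and 2.88 (log2) in the XX arrays, at 5.70, 5.17, 5.18 and 5.05 in the GDX arrays, and at 6.20, 6.26, 6.15 and 6.63 in intact XY. The 3 groups did not overlap, GDX lay between the others, and all XX values were under 5, so the size of the change (-1.82 ± 0.34, log2 ± SE, adjusted p 0.00736) is uncertain. The probe set cannot be assumed to separate this gene from others that give the same mature let-7c. Mir23b stood at 6.44, 6.05, 6.61 and 6.51 in XX and 7.56, 7.02, 6.91 and 7.11 in GDX arrays. It was lower in every XX array by this measure (-0.75 ± 0.15, adjusted p 0.014), a call lost without XX array 2 or GDX array 1 (adjusted p up to 0.0683). Mir23a (-0.76 ± 0.17, adjusted p 0.0291) lay under 5 in all XX arrays, between 4.07 and 4.78, and was called in only 3 of 8 fits that left out 1 array. Those without XX array 1, XX array 2 or GDX array 1, 2 or 4 gave an adjusted p up to 0.113. Mir99a (-0.72 ± 0.17, adjusted p 0.0497) overlapped between the groups and kept its call only without XX array 3 (adjusted p up to 0.166 without the others).

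The wider set of microRNA genes was looked at after these values had been seen. Of 182 autosomal microRNA genes tested, 4 (2.2%) were lower in XX than in GDX and 0 were higher by limma (21 and 5 at an unadjusted p under 0.05), against 0.395% and 0.453% of all autosomal genes. Their median change was -0.02, and 107 of 182 lay below 0. Related microRNA genes on the same chromosomes did not pass: Mirlet7a-1 had -0.59 (adjusted p 0.056), Mirlet7c-1 -0.50 (adjusted p 0.38) and Mir27a -0.27 (adjusted p 0.434). Between XX and intact XY, 34 of the 182 were called lower in XX and 0 higher, against 3.98% and 3.66% of all autosomal genes. The 4 genes called against GDX were among the 34, with -2.86 for Mirlet7c-2, -0.80 for Mir23a, -1.11 for Mir23b and -0.96 for Mir99a. The labelling kit copies longer transcripts, so these are not levels of the mature microRNAs.

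The genes that stayed higher in XX included a synaptic adhesion protein, a riboflavin kinase and an autophagy receptor. Elfn1, a leucine-rich repeat protein of synapses, was 8.03-fold higher in XX than in GDX glands. Its levels were 8.0, 9.02, 8.56 and 9.43 in XX, 5.31, 6.23, 5.86 and 5.59 in GDX and 6.36, 5.54, 5.59 and 5.78 in intact XY. Every XX array lay above every male array, and GDX and intact males overlapped. The change was 3.01 ± 0.29 (95% interval 2.41 to 3.60, adjusted p 1.52e-06) against GDX and 2.93 against intact XY. Between GDX and intact XY the gene differed by -0.07 (adjusted p 0.939).

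Rfk, which makes the flavin cofactor FMN from riboflavin, stood at 10.08, 10.29, 10.21 and 10.71 in XX, 9.06, 9.40, 9.22 and 9.31 in GDX and 8.98, 8.85, 8.83 and 8.88 in intact XY. No array of one group overlapped another group. XX exceeded GDX by 1.07 ± 0.10 (adjusted p 1.52e-06), and GDX exceeded intact XY by 0.37 (adjusted p 0.0437), so GDX lay nearer to the intact males. Pipox, an oxidase that uses a flavin, had the same order, with 7.14, 7.50, 7.28 and 7.01 in XX, 6.38, 6.13, 6.34 and 6.38 in GDX and 5.60 to 5.98 in intact XY (0.93 ± 0.14, adjusted p 0.000888, against GDX). Agxt2, a mitochondrial aminotransferase, did too, with 6.67 to 7.12 in XX, 5.59 to 5.75 in GDX and 4.97 to 5.46 in intact XY (1.13 ± 0.13, adjusted p 4.43e-05). In these 3 genes the XX and GDX arrays were separated by a clear gap.

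Retreg1, a receptor that delivers endoplasmic reticulum to autophagy, stood at 9.76, 9.70, 9.59 and 10.11 in XX, 8.87, 8.79, 8.80 and 8.64 in GDX, and 8.68, 8.67, 8.57 and 8.72 in intact XY. Its change of 1.02 ± 0.09 against GDX had the smallest adjusted p of the 118 genes (3.81e-07), and GDX and intact males did not differ beyond their spread (0.12, adjusted p 0.542). Gas6, the secreted ligand of the receptors Tyro3, Axl and Mertk, stood at 10.53, 10.59, 10.65 and 11.10 in XX, 9.70, 9.39, 9.66 and 9.72 in GDX and 9.17 to 9.93 in intact XY (1.10 ± 0.17, adjusted p 0.00153). Smad9, which carries bone morphogenetic protein signals to the nucleus, had 7.22, 7.61, 7.09 and 7.21 in XX and 6.43, 5.89, 6.14 and 5.93 in GDX (1.19 ± 0.16, adjusted p 0.000328). In Retreg1, Gas6 and Smad9 the lowest XX array lay above the highest male array. Samd5, a protein with a SAM domain, changed by 1.12 ± 0.22 (adjusted p 0.0103), a call lost without GDX array 2 (adjusted p 0.0512).

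**Figure D2:**
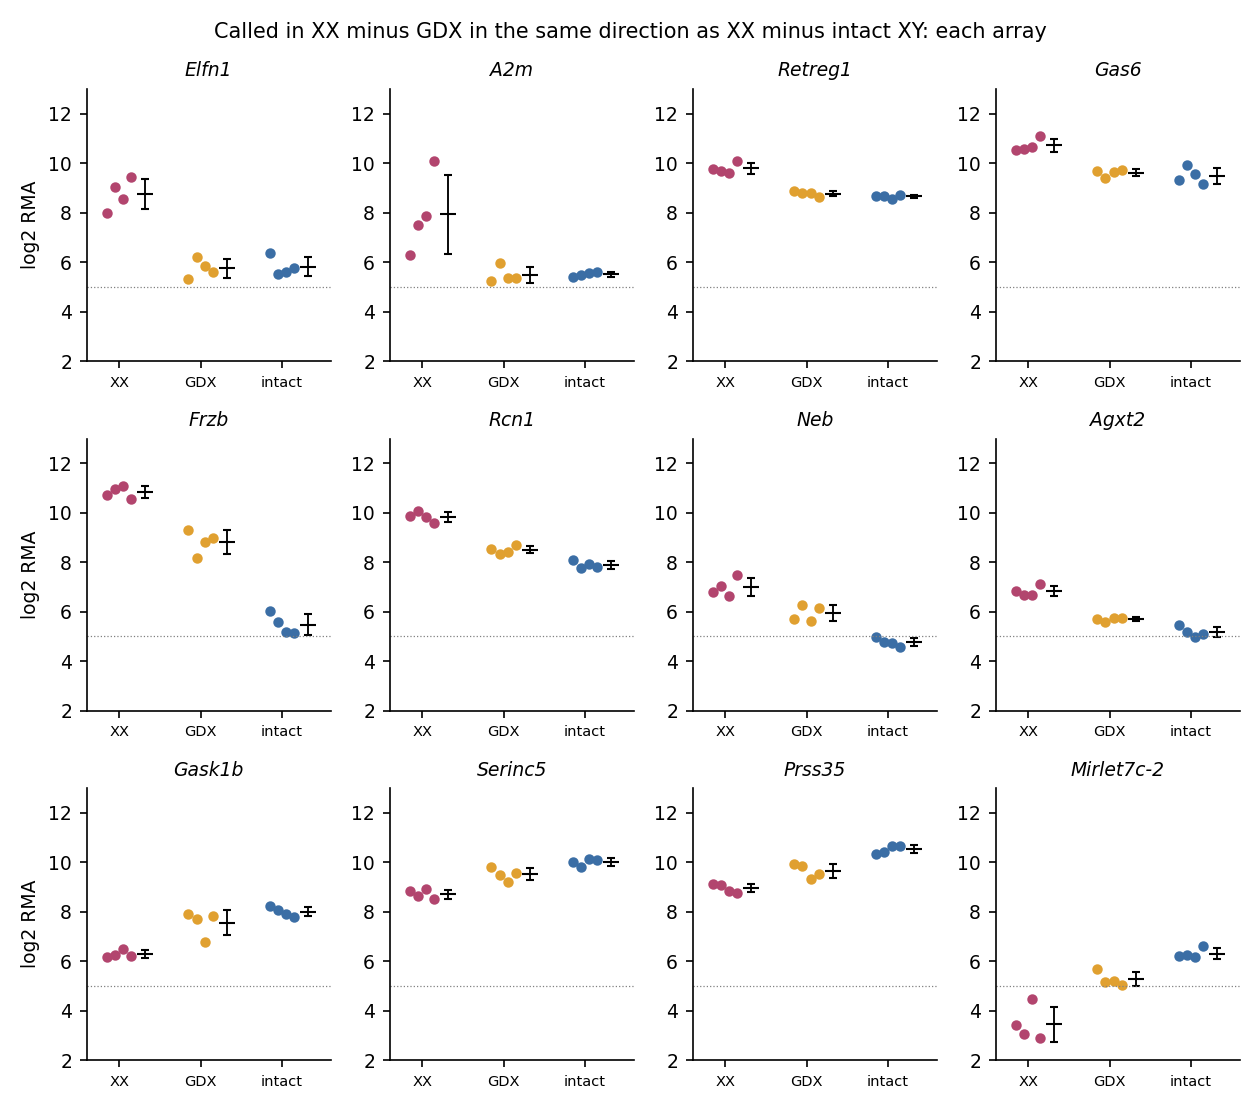
Log2 RMA level (vertical axis) of 12 genes called between WT XX and GDX adrenals in the same direction as between XX and intact XY. Points are the 4 arrays of each group in label order, the bar is the mean with SD, and the dotted line marks the level of 5 under which a gene is too dim to read. GDX arrays stand at the level of intact males for Elfn1, A2m, Retreg1 and Gas6 and between XX and intact males for Frzb, Rcn1, Neb and Agxt2.

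In 13 of the 70 genes GDX was also called against intact XY, with a level between intact XY and XX. Frzb, a secreted antagonist of WNT ligands, was the extreme case, at 10.70, 10.95, 11.10 and 10.55 in XX, 9.29, 8.16, 8.83 and 8.99 in GDX and 6.02, 5.57, 5.16 and 5.12 in intact XY. The 3 groups did not overlap. Of the difference of 5.36 between XX and intact XY, 3.35 lay between GDX and intact XY (adjusted p 1.33e-06) and 2.01 ± 0.31 between XX and GDX (adjusted p 0.00128). Rcn1, a calcium-binding protein of the endoplasmic reticulum, had 9.86, 10.08, 9.82 and 9.57 in XX, 8.54, 8.35, 8.43 and 8.70 in GDX and 7.77 to 8.10 in intact XY (1.33 ± 0.14 against GDX, adjusted p 4.81e-06). Neb, the giant actin-binding protein nebulin, stood at 6.80, 7.05, 6.63 and 7.48 in XX, 5.72, 6.29, 5.61 and 6.13 in GDX and under 5 in all intact XY arrays (1.05 ± 0.18 against GDX, adjusted p 0.00375). Fitted with XX and GDX arrays alone, the adjusted p of Neb was 0.0641.

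A GDX level between those of XX and intact XY was also seen among genes lower in XX. Prss35, a trypsin-like secreted protein, stood at 9.12, 9.06, 8.85 and 8.76 in XX, 9.93, 9.85, 9.33 and 9.52 in GDX and 10.33, 10.43, 10.66 and 10.65 in intact XY. XX was below GDX by -0.71 ± 0.13 (adjusted p 0.00724), and GDX was below intact XY by -0.86 (adjusted p 0.000577). Serinc5, a membrane protein that moves phospholipids and hinders retroviruses, had 8.83, 8.62, 8.90 and 8.50 in XX, 9.81, 9.48, 9.22 and 9.58 in GDX and 9.81 to 10.14 in intact XY (-0.81 ± 0.13 against GDX, adjusted p 0.00238). In both genes the XX arrays lay below all male arrays.

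The other 57 of the 70 were not called between GDX and intact XY. Among those lower in XX, Sh3bgrl2, a small thioredoxin-like protein, had 6.64, 6.62, 6.56 and 6.75 in XX, 7.27, 7.06, 7.34 and 7.08 in GDX and 7.11 to 7.33 in intact XY (-0.55 ± 0.07, adjusted p 0.000249). Kcnma1, the pore of the large-conductance calcium-activated potassium channel, changed by -0.49 ± 0.10 (adjusted p 0.0183), a call lost without XX array 2, XX array 4, GDX array 1 or GDX array 2 (adjusted p up to 0.0857). Gask1b, a Golgi-associated kinase-like protein, stood at 6.16, 6.27, 6.50 and 6.23 in XX and 7.92, 7.70, 6.79 and 7.84 in GDX arrays. GDX array 3 lay nearest to XX. The change of -1.27 ± 0.28 (adjusted p 0.0316) kept its call only when GDX array 3 was the array left out, with an adjusted p up to 0.103 otherwise. Sel1l3 (-1.19 ± 0.28, adjusted p 0.0405) behaved the same way, with an adjusted p up to 0.117, and its XX arrays lay at 4.92 to 5.22. Olfr1271, an odorant receptor gene of a family with near-identical copies, changed by -1.19 ± 0.25 (adjusted p 0.0179), lost without XX array 1, 2 or 3 or GDX array 1 (adjusted p up to 0.0713).

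Among those higher in XX were metabolic enzymes. Abhd3, a phospholipase of the abhydrolase family, stood at 9.91, 9.59, 9.93 and 9.95 in XX, 9.11, 8.84, 8.84 and 9.23 in GDX and 9.03 to 9.41 in intact XY (0.84 ± 0.11, adjusted p 0.000241). Abhd6, a monoacylglycerol lipase, rose by 0.57 (adjusted p 0.00624) and Aldh7a1, an aldehyde dehydrogenase of lysine breakdown, by 0.40 (adjusted p 0.00733). Grb10, an imprinted adaptor that dampens insulin and growth factor receptors, was higher by 0.50 ± 0.08 (adjusted p 0.00248), with 8.80 to 9.18 in XX and 8.45 to 8.58 in GDX. All 4 genes were called in each of the 8 fits that left out 1 XX or GDX array.

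Esr1, the estrogen receptor alpha, stood at 7.77, 7.83, 8.03 and 8.65 in XX, 6.92, 7.09, 7.32 and 6.73 in GDX and 6.97, 7.42, 7.38 and 7.47 in intact XY. The XX arrays lay above all male arrays, XX array 4 being the highest. The change of 1.06 ± 0.22 (adjusted p 0.0223) did not hold without XX array 3 or 4 or GDX array 1, 2 or 4 (adjusted p up to 0.0843), nor with both groups fitted alone (adjusted p 0.0554).

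A2m and Alb, genes of plasma proteins, were uneven between females. A2m, the protease inhibitor alpha-2-macroglobulin, stood at 6.28, 7.49, 7.88 and 10.10 in XX, 5.23, 5.96, 5.36 and 5.38 in GDX and 5.39 to 5.59 in intact XY. All XX arrays lay above all male arrays, spread over nearly 4 log2 units. The change of 2.45 ± 0.46 (adjusted p 0.00724) was called without any 1 of the 8 arrays, but not when XX and GDX arrays were fitted alone (adjusted p 0.157) or with the 3 WT groups alone (adjusted p 0.0788). Alb, serum albumin, stood at 4.94, 6.49, 8.82 and 7.21 in XX and 4.81 to 4.89 in GDX (2.02 ± 0.44, adjusted p 0.0264). XX array 1 was at the dim level of the males, and the call was lost without XX array 4 or without any GDX array (adjusted p up to 0.0778).

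Of 5 tested markers of liver and kidney, Alb among them, 4 lay above 0 and only Alb was called. The mean of the other 4 was 5.14, 5.12, 5.29 and 5.55 in the XX arrays and 5.06 to 5.23 in GDX, so the groups overlapped, with XX array 4, where A2m was highest, at the top. Apoa1 and Ttr, liver genes, changed by 0.23 (adjusted p 0.543) and 0.26 (adjusted p 0.503). Their group means were no higher than 5.53. The part of other tissue in the change of A2m and Alb was not tested.

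In a smaller set of genes the GDX level lay above the female level. Fa2h, which makes 2-hydroxy fatty acids for sphingolipids, stood at 5.38, 6.13, 4.98 and 5.89 in XX, 7.15, 9.71, 8.45 and 9.27 in GDX and 4.72, 4.54, 4.94 and 4.42 in intact XY. All GDX arrays lay above all others, and GDX exceeded XX 8.28-fold (-3.05 ± 0.40 for XX minus GDX, adjusted p 0.000186). XX and intact XY did not differ by the test (0.94, adjusted p 0.167). Acpp, prostatic acid phosphatase, known as a target of androgens in the prostate, stood at 5.90, 6.79, 6.07 and 6.36 in XX, 8.27, 8.52, 7.91 and 9.14 in GDX and 5.25 to 5.48 in intact XY (-2.18 ± 0.26, adjusted p 5.33e-05). Here the 3 groups did not overlap: XX was above intact XY by 0.89 (adjusted p 0.0383), and GDX was above both.

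Fetub, fetuin B, an inhibitor of metalloproteases, had 6.12, 7.11, 6.31 and 7.73 in XX, 7.92, 9.82, 8.04 and 9.08 in GDX and 4.74 to 5.43 in intact XY. GDX was again highest (-1.90 ± 0.41 for XX minus GDX, adjusted p 0.0264), a call lost without XX array 1 or 3 or GDX array 2 or 4 (adjusted p up to 0.116). Nrep, a small intracellular protein of regenerating neurons, had 7.88, 8.04, 8.02 and 8.43 in XX, 8.51, 9.88, 8.83 and 9.28 in GDX and 6.83 to 7.28 in intact XY (-1.03 ± 0.21, adjusted p 0.0179). Its call was lost without XX array 1, 2 or 3 or GDX array 2 or 4 (adjusted p up to 0.0699). The other gene called in opposite directions was the uncharacterised 4930486L24Rik, at 6.34 to 7.23 in XX, 8.22 to 10.14 in GDX and 4.04 to 5.44 in intact XY (-2.17 ± 0.35, adjusted p 0.00172).

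**Figure D3:**
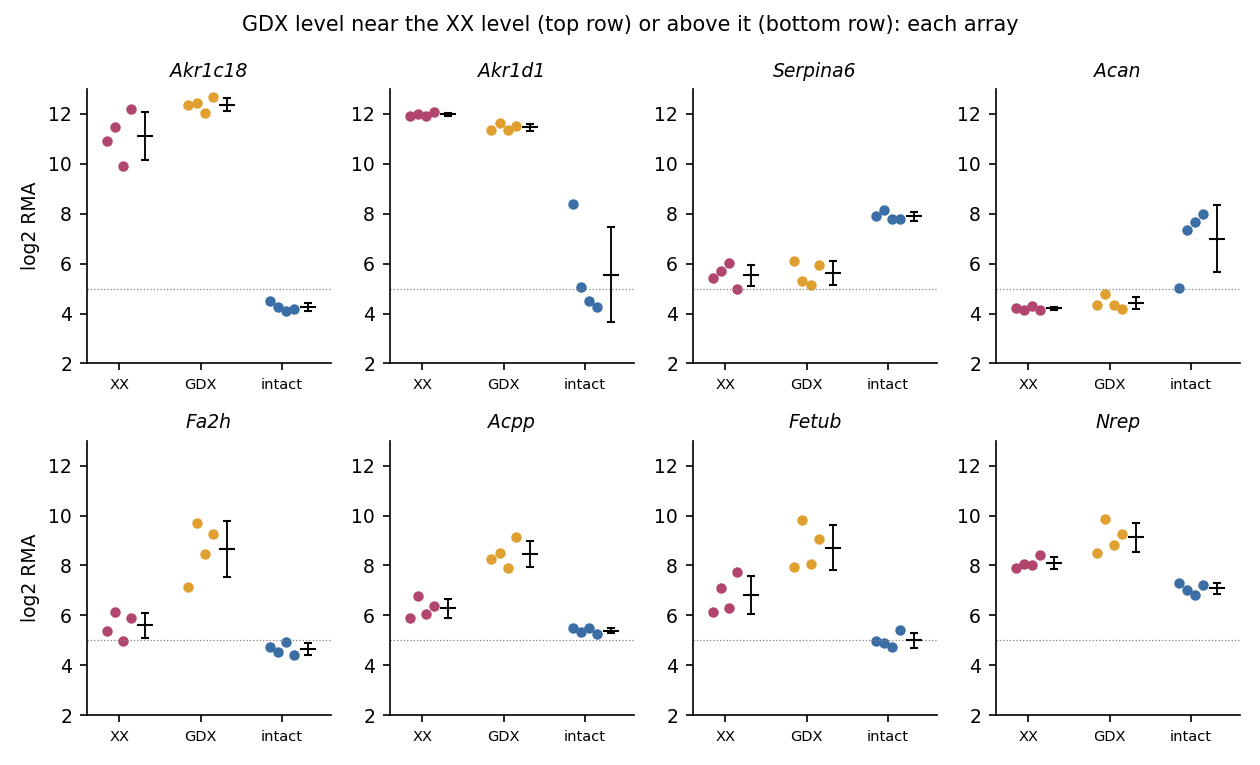
Log2 RMA level (vertical axis) of 8 genes in WT XX, GDX and intact XY adrenals. Points are the 4 arrays of each group in label order, the bar is the mean with SD, and the dotted line marks the level of 5. In the upper row GDX stands near XX and far from intact XY, with intact XY array 1 apart for Akr1d1 and Acan, and in the lower row all GDX arrays lie above the XX arrays.

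A further 44 of the 118 genes were not called between XX and intact XY. Of these, 18 (40.9%) had an unadjusted p under 0.05 there by limma, against 21.7% of all autosomal genes. The genes were chosen in a comparison that shares the XX arrays and the estimate of spread, so the 2 shares cannot be set against each other as independent. Of the 44, 19 were called between GDX and intact XY, 12 of them lower and 7 higher in XX than in GDX, and 25 were not. Fndc5, the precursor of irisin, had 7.17, 7.21, 7.13 and 7.38 in XX, 7.92, 8.55, 7.85 and 8.16 in GDX and 6.79 to 7.28 in intact XY (-0.90 ± 0.14, adjusted p 0.00145). Fscn1, which bundles actin, had 7.04, 7.13, 7.18 and 7.25 in XX, 7.74, 8.17, 7.60 and 8.06 in GDX and 6.75 to 7.17 in intact XY (-0.75 ± 0.12, adjusted p 0.00238). Fhdc1, a formin that links actin and microtubules, changed by -0.95 ± 0.16 (adjusted p 0.00248). In the first 2, XX and intact XY overlapped and GDX stood above both, and all 3 kept their calls without any 1 of the 8 arrays.

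The reverse order, with GDX lowest, was seen for Ephx1, microsomal epoxide hydrolase, a member of the X-zone list below. Akr1c18, the usual X-zone marker, was instead lowest in intact XY (mean 4.26, against 12.37 in GDX). Ephx1 stood at 10.11, 9.73, 10.01 and 10.19 in XX, 8.90, 9.32, 9.07 and 8.90 in GDX and 9.14, 9.64, 9.69 and 9.82 in intact XY. XX exceeded GDX by 0.96 ± 0.14 (adjusted p 0.000455), and GDX was below intact XY by -0.52 (adjusted p 0.0299). Slc4a11, a membrane transporter, had the same order (0.77 ± 0.18 for XX minus GDX, adjusted p 0.0389) with a call kept in 1 of 8 fits, that without GDX array 4 (adjusted p up to 0.164 otherwise). Mkx, a homeobox factor of tendon (-1.69 ± 0.39, adjusted p 0.0389), was called in 3 of 8 such fits and lost without XX array 1 or 3 or GDX array 1, 2 or 4 (adjusted p up to 0.15). Olfr1010, another odorant receptor gene, lay under 5 in all XX arrays (-1.18 ± 0.27, adjusted p 0.0401) and was called in 1 of the 8, that without GDX array 3 (adjusted p up to 0.135).

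Most of the largest dimorphic differences were not called against GDX males. Akr1c18 stood at 10.91, 11.47, 9.91 and 12.18 in XX, 12.35, 12.43, 12.04 and 12.66 in GDX and 4.51, 4.26, 4.10 and 4.19 in intact XY. Intact males were under 5, and GDX arrays overlapped with the highest female. The difference between XX and GDX was -1.25 (95% interval -2.78 to 0.27, adjusted p 0.553), that between GDX and intact XY 8.11. Akr1d1, a steroid 5 beta-reductase, had 11.93, 12, 11.91 and 12.08 in XX, 11.36, 11.65, 11.34 and 11.52 in GDX and 8.38, 5.08, 4.51 and 4.27 in intact XY. XX exceeded GDX by 0.51 without overlap (adjusted p 0.849, 95% interval -0.92 to 1.94). Intact XY array 1 stood apart, and with XX and GDX fitted alone the gene was called (adjusted p 0.0368).

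Serpina6, the corticosteroid-binding globulin, stood at 5.44, 5.70, 6.01 and 5.0 in XX, 6.12, 5.29, 5.16 and 5.95 in GDX and 7.89, 8.16, 7.77 and 7.78 in intact XY. XX and GDX overlapped, with a difference of -0.09 (95% interval -0.58 to 0.39, adjusted p 0.936). Acan, the proteoglycan aggrecan, was under 5 in all XX and GDX arrays and stood at 5.01, 7.36, 7.67 and 7.98 in intact XY. Intact XY array 1 stood towards XX in Akr1d1, Acan, Cd1d1 (7.03 against 5.16 to 5.63), which presents lipids to natural killer T cells, and Serpinb1a (9.18 against 5.68 to 6.74), a protease inhibitor. Cyp2f2, a cytochrome P450 of the X-zone, had 9.29, 10.29, 8.67 and 9.11 in XX and 7.48, 9.94, 8.05 and 6.77 in GDX. The groups overlapped (1.28, 95% interval 0.11 to 2.45, adjusted p 0.379), and its other probe set changed by 0.37.

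Also in this class were Prr16, which promotes translation of certain messengers (0.46, 95% interval -0.01 to 0.93, adjusted p 0.456), Hamp, the iron hormone hepcidin (-0.61, -2.30 to 1.09, adjusted p 0.848), and St8sia5, a sialyltransferase of gangliosides (-1.11, -1.88 to -0.34, adjusted p 0.205), whose other probe set changed by -0.11. Hamp, made mainly in liver, was as uneven between females as A2m and Alb, at 3.12, 6.60, 7.11 and 8.53, with GDX arrays at 4.57 to 8.85. The 95% intervals of Serpina6 and Prr16 lay within 1 log2 unit of 0, and those of Akr1c18, Akr1d1, Acan and Hamp reached beyond it. For Cyp2f2 and St8sia5 the interval of the single gene left out 0, while the p adjusted over all genes did not pass.

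Few genes of the zone and pathway lists were called between XX and GDX, as among all autosomal genes (0.848%). Of 28 lists, 23 had no called member by limma, and 42 of their 309 tested entries had an unadjusted p under 0.05 (13.6%, against 11.4% of all autosomal genes). The others had 1 each: Ephx1 in the X-zone list (10 tested), Esr1 in the gonadal-like (12) and estrogen response (9) lists, Acpp in the androgen response list (10) and Alb in the liver and kidney list (5). The X-zone list had a mean of 8.23, 8.41, 8.07 and 8.38 in XX, 8.11, 8.36, 8.06 and 8.14 in GDX and 7.01 to 7.12 in intact XY. XX and GDX overlapped, and both lay above intact males. Most of that gap came from Akr1c18 and Cyp2f2. The mean of the other 8 genes was 7.76 to 7.81 in XX, 7.56 to 7.75 in GDX and 7.59 to 7.68 in intact XY, with GDX overlapping intact males. Over the 10 genes the median change was 0.04 between XX and GDX (-0.01 to 0.08 without single arrays) and 0.26 between XX and intact XY, where 3 were called higher and 1 lower. The median change was 0.03 in the 14 genes of the steroidogenic core, 0.12 in the 14 of the zona glomerulosa and 0.04 in the 6 of the zona fasciculata, against -0.0006 over all autosomal genes. In the glomerulosa list Hsd3b6, a 3 beta-hydroxysteroid dehydrogenase, had 9.81 to 10.37 in XX and 8.46 to 9.59 in GDX without overlap (1.19, adjusted p 0.468).

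Genes of cell division lay lower in XX than in GDX. All 22 tested members of the proliferation list had a change below 0, against 50.2% of all autosomal genes, with a median of -0.35 (-0.41 to -0.29 when single arrays were left out). No member was called by limma over all genes, and 11 had an unadjusted p under 0.05. The list mean stood at 5.66, 5.70, 5.51 and 5.70 in XX, 6.13, 6.21, 5.91 and 5.96 in GDX and 5.74, 5.67, 5.53 and 5.51 in intact XY. XX overlapped with intact males, and all GDX arrays lay above both. Mki67, the Ki-67 antigen of cycling cells, had 6.66, 6.87, 6.11 and 6.33 in XX, 7.53, 7.68, 7.03 and 7.16 in GDX and 6.07 to 6.63 in intact XY (-0.86, 95% interval -1.49 to -0.22, adjusted p 0.254). Outside the list, called genes of DNA replication and repair, looked at after their values were seen, went both ways. Polk, a DNA polymerase that bypasses damage (0.52, adjusted p 0.0192), and Cenpx, a protein of centromeres and DNA repair (0.36, adjusted p 0.0277), were higher in XX. Polk lost its call without XX array 1, 2 or 4 or GDX array 1 or 3 (adjusted p up to 0.0749). Cenpx lost its call without XX array 1, 2, 3 or 4 or GDX array 1 or 2 (adjusted p up to 0.122). Lower in XX were Pold1, the catalytic subunit of DNA polymerase delta (-0.40, adjusted p 0.0339), Neil3, a DNA glycosylase (-0.39, adjusted p 0.0405), and Cip2a, an inhibitor of protein phosphatase 2A found in dividing cells (-0.66, adjusted p 0.00153). Cip2a stood at 4.30 to 4.58 in XX and 4.83 to 5.33 in GDX. All its XX arrays and GDX array 3 were under 5, so the size of the change is uncertain. Cip2a kept its call without any 1 array. Pold1 lost it without XX array 2, 3 or 4 or GDX array 1, 2 or 3 (adjusted p up to 0.134), and Neil3 without any array but GDX array 4 (adjusted p up to 0.141). Neil3 also lay under 5 in all XX arrays and in GDX array 4.

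Macrophage and early response genes also lay mostly lower in XX than in GDX, without a call. Of 17 macrophage markers 16 lay below 0 (median -0.30), and the list mean was 6.57, 6.74, 6.77 and 6.81 in XX and 6.99, 7.46, 7.00 and 6.85 in GDX, GDX array 2 being highest and the groups not overlapping. Intact XY stood at 6.75, 7.32, 6.80 and 6.74, with array 2 in the range of GDX and the others in that of XX. The 6 tested genes of antigen presentation by MHC class II had a median of -0.44. Their mean was 7.43 to 7.99 in XX, 7.89 to 8.33 in GDX and 7.67 to 8.32 in intact XY, so all groups overlapped. Of 18 targets of CREB and other early genes 15 lay below 0 (median -0.19), among them Nr4a1, an orphan nuclear receptor induced by ACTH, at 8.59, 9.03, 9.12 and 8.60 in XX and 9.34, 10.34, 10.57 and 10.63 in GDX (-1.39, adjusted p 0.208). The kinase gene Sik1 had -1.0 (adjusted p 0.0954). The mean of the 18 early genes was 6.89 to 7.19 in XX, 7.09 to 7.42 in GDX and 6.73 to 7.31 in intact XY, again with overlap. The part of macrophage RNA in the changes of other genes was not tested. The adipocyte list ran from 7.64 to 9.0 in XX and from 7.64 to 9.71 in GDX, with a median change of 0.02, -0.21 to 0.33 without single arrays, and so varied more within groups than between them.

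**Figure D4:**
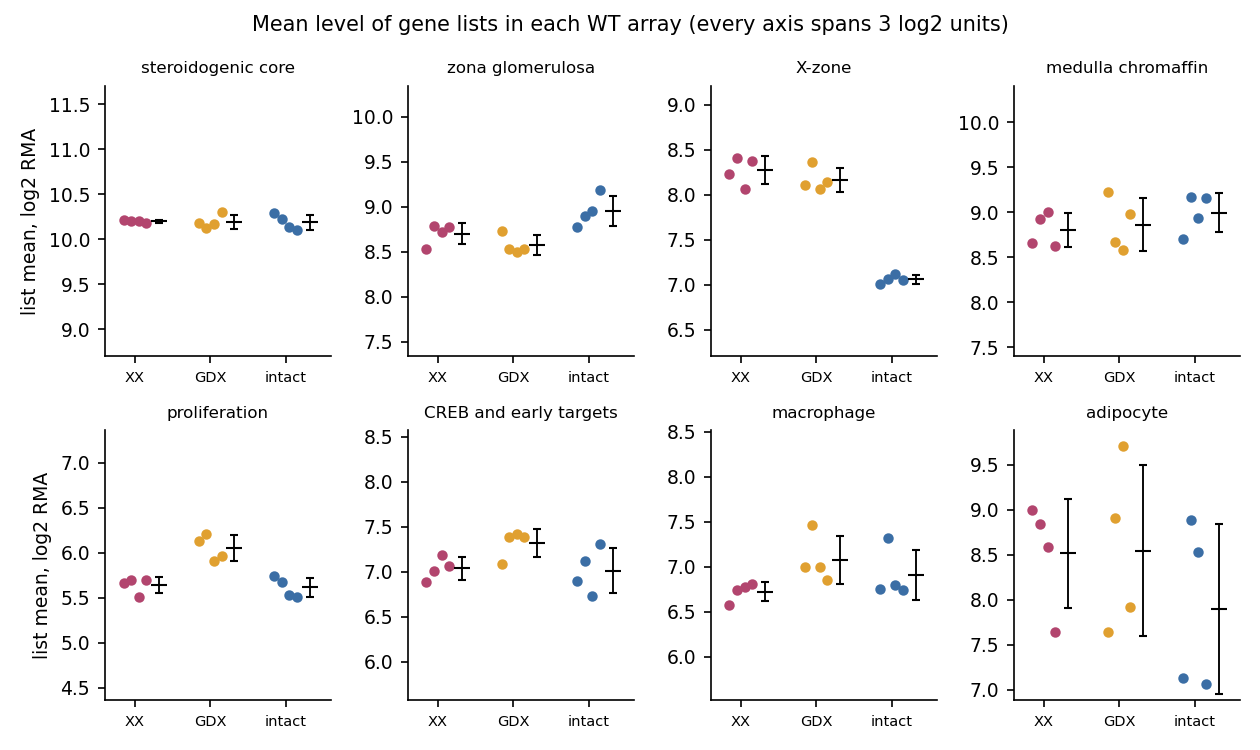
Mean log2 RMA level of 8 gene lists in each WT array (vertical axis, every panel spanning 3 log2 units). Points are the 4 arrays of a group in label order and the bar is the mean with SD. The X-zone list, mostly through Akr1c18 and Cyp2f2, separates XX and GDX from intact XY, the proliferation list stands highest in the 4 GDX arrays, and the adipocyte list varies most within groups.

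The promoters of the genes that stayed different were searched for hormone response sequences. The search took the 45 genes higher and the 25 lower in XX together. The window was the 250 bases before each start (RefSeq, GRCm38.p6), and 53 of the 70 genes had one. AGAACA or TGTTCT, a short sequence read by androgen and glucocorticoid receptors, was in 9 of 53 (17.0%), in 11 of 89 called genes (12.4%) and in 1185 of 10797 autosomal genes tested (11%). CAAGGTCA or TGACCTTG, read by steroidogenic factor 1, was in 1 of 53 (Polk) and in 1.03% of all. The palindromic estrogen response element without mismatch was in 0 of 53 and in 1 of 10797. All were searched on both strands, and the last 2 motifs share the letters GGTCA. The promoter of Rfk (chr19:17393793-17394042, plus strand), the gene with the smallest adjusted p of those that hold a match, is shown with the match in capitals, at position -221 from the start:
Rfk promoter: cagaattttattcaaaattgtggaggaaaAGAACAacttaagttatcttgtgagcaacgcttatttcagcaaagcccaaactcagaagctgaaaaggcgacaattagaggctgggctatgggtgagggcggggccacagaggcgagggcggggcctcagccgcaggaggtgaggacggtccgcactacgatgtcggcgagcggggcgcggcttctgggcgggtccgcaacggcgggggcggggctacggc
A match describes these letters, not binding.

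The knockout arrays of the series give the same contrast in other animals. There XX and GDX mice had the same genotype at all engineered loci (Prkar1a fl/fl; cre/+; mTmG/mTmG), and the group means share no array with the WT comparison. The spread of each gene was estimated over all 24 arrays, so the calls in both contrasts are not independent. The directions do not use that spread. Of the 118 genes, 103 (87.3%) changed in the same direction in the knockout arrays, against 57.4% of all autosomal genes, and 61 were also called there, where 18.2% of autosomal genes were called (8.63% higher and 9.54% lower in XX). By direction the 103 were 55 of the 63 genes higher in XX, where 47.7% of all autosomal genes had a change above 0, and 48 of the 55 lower in XX. Of the 70 genes that stayed different, 64 had the same direction and 41 were called. Frzb changed by 2.54 (adjusted p 2.54e-05), Elfn1 by 1.92 (adjusted p 0.000168), Neb by 1.17 (adjusted p 0.000213), Rcn1 by 1.07 (adjusted p 4.21e-05) and Retreg1 by 0.47 (adjusted p 0.00119). A2m (1.07, adjusted p 0.108), Gas6 (0.32, adjusted p 0.206), Esr1 (0.20, adjusted p 0.593) and Grb10 (0.01, adjusted p 0.926) were not called there. Tenm3 (-0.72, adjusted p 0.00926) and Gask1a (-0.28, adjusted p 0.0476), also among the 70 and higher in XX in WT, were called lower in XX there.

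The difference between both contrasts was called for 21 of the 118 genes (17.8%), against 3.24% of all autosomal genes (1.49% higher and 1.75% lower). The interaction uses the WT arrays in which the 118 were called, so these shares are not independent. Acpp was lower in XX than in GDX by -2.18 in WT and higher by 1.12 in knockout arrays (interaction 3.30, adjusted p 8.63e-05), and Fetub likewise by -1.90 and 0.97 (interaction 2.87, adjusted p 0.0103). Fa2h changed by -3.05 and -0.78 (interaction 2.27, adjusted p 0.0285). Ephx1 changed by 0.96 and -0.03 (interaction -0.99, adjusted p 0.00861).

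**Figure D5:**
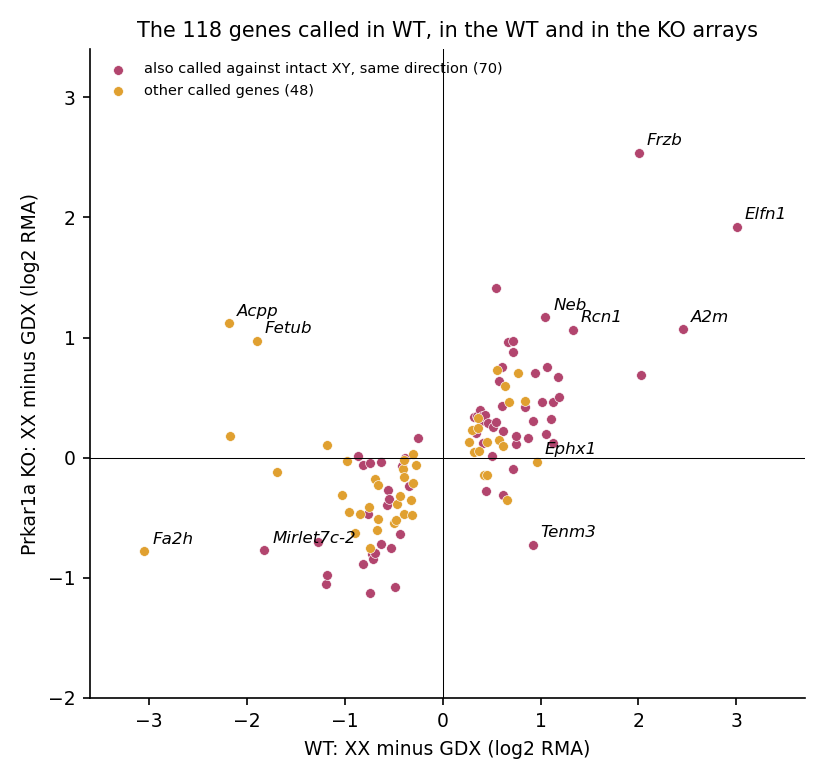
Change between XX and GDX adrenals in WT arrays (horizontal axis, log2 RMA) and in Prkar1a knockout arrays (vertical axis, log2 RMA) for the 118 genes called in WT. Each point is a gene, and the 70 that were also called against intact XY in the same direction are marked. Frzb and Elfn1 are high on both axes, and Acpp and Fetub have opposite signs.

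Prkar1a and Cyp11b2 themselves were not called between XX and GDX. Prkar1a stood at 8.43, 8.53, 8.54 and 8.52 in XX and 8.94, 8.92, 8.73 and 8.59 in GDX (-0.29, 95% interval -0.75 to 0.18, adjusted p 0.695). The XX arrays lay below the GDX arrays, and GDX array 4, which has the floxed allele, was nearest to them. Cyp11b2 stood at 9.71, 10.97, 11.11 and 11.04 in XX and 11.42, 10.35, 9.80 and 10.46 in GDX (0.20, 95% interval -0.54 to 0.95, adjusted p 0.899), with the Cre-free GDX array 1 highest. None of the 40 nearest tested genes around each locus was called between XX and GDX by limma (4 around Prkar1a and 3 around Cyp11b2 had an unadjusted p under 0.05). With 0.848% of autosomal genes called, the lack of a call among 40 says little about these loci. Between XX and intact XY 4 around Prkar1a (10%) and 5 around Cyp11b2 (12.5%) were called, against 7.64% of autosomal genes.

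Against the genotype-matched GDX array 4 alone, 13 genes were called, 11 of them among the 118. All 118 kept their sign there, which is not independent because array 4 is part of the GDX mean. The single array was assumed to vary like the arrays of the other groups. The change was 3.16 for Elfn1 (adjusted p 0.0021), 1.01 for Rfk (adjusted p 0.00786), 1.14 for Rcn1 (adjusted p 0.0285), -3.67 for Fa2h (adjusted p 0.0102) and -2.86 for Acpp (adjusted p 0.000469), and Smad9, Agxt2 and Ephx1 also kept their calls. These were 8 of the 27 called genes tested under every alternative. The other 19 lost the call, with changes of 1.83 for Frzb (adjusted p 0.222), 1.0 for Gas6 (adjusted p 0.248), 1.34 for Esr1 (adjusted p 0.201) and 0.86 for Neb (adjusted p 0.355). Of the 118 genes 44 were called in each of the 8 fits that left out 1 XX or GDX array, 31 of them among the 70, and the number of called genes was lowest (53) without GDX array 2.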

How the data were processed

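The deposited table holds log2 signals of 32202 probe sets that the authors made by RMA, per the submitters' processing notes. The sources used here do not give the software version or the build of the probe annotation. Of the probe sets, 22943 carry 1 gene symbol, 1731 several and 7528 none. The 21957 genes were each read by the probe set with the highest mean, and 14411 with log2 over 5 in at least 4 of 24 arrays were tested. RefSeq (GRCm38.p6) placed genes on chromosomes; 477 on X or Y and 15 unplaced were left out of counts.

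Group means of 6 groups were fitted over all 24 arrays with limma 3.58.1 (lmFit, eBayes; R 4.3.3; 18 residual and 3.41 prior degrees of freedom), and p-values were Benjamini-Hochberg adjusted over all genes tested. On simulated data of this comparison (14411 genes), changes of 0.5, 1 and 2 on the log2 scale were recovered in 73.1, 94.0 and 98.5%, with 5 false calls. The simulated noise was normal, independent and of the same spread in all groups, and changes were added to XX only. Real groups can differ in spread, as for A2m (SD 1.59 in XX, 0.32 in GDX), so these shares need not hold for the real arrays.

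The members and gene lists were chosen with earlier results of these data known. Named are the 12 largest rises and 12 largest falls among called genes without overlap and without predicted symbols, the 10 largest dimorphic genes of each kind, up to 6 called against GDX and between GDX and intact XY but not dimorphic, up to 3 per list, and the alleles. The microRNA genes other than Mirlet7c-2, and Retreg1, Pipox, Prss35, Serinc5, Sh3bgrl2, Kcnma1, Abhd3, Abhd6, Aldh7a1, Apoa1, Grb10, 4930486L24Rik, Polk, Cenpx, Pold1, Neil3, Cip2a, Tenm3 and Gask1a, were named after their values were seen. Alternatives were other fits, filters, probe set rules, a second normalization, a replicate block and leaving out single arrays. The X-zone list without Akr1c18 and Cyp2f2 and the liver and kidney list without Alb were added after seeing the data.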

Additional observations from a re-analysis of the deposited data

Results flagged for a closer look

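In 216 groups of 4 arrays (XX or GDX) of the named genes, 14 held 1 array far from the other 3 by Dixon's criterion, against 10.8 that chance would give at 1 in 20. Among the XX arrays, Samd5 was low in array 3 (8.23, the others 8.70 to 8.72), Olfr1271 high in array 4 (7.01, the others 5.70 to 5.91) and St8sia5 low in array 2 (4.24, the others 4.94 to 5.03). Col14a1 (6.66) and Plvap (8.79) were high and Lep (6.13) was low in XX array 4, H2-Ab1 (9.12) and Cyp11b2 (9.71) were low in XX array 1, and Cpa3 (7.60) was high in XX array 3. Among the GDX arrays, Olfr1271 (7.57) and Cyp17a1 (7.64, the others 4.34 to 4.89) were high in array 1, Lyz2 (10.67) and Cd68 (8.53) in array 2 and Scarb1 (11.82) in array 4.

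The change between XX and GDX differed between knockout and WT arrays, by the limma interaction, in 15 named genes, of which the text above gives Fa2h (2.27), Acpp (3.30), Fetub (2.87) and Ephx1 (-0.99). For the rest the interaction is followed by its adjusted p. It was 0.80 (0.00996) for Fdx1, -1.01 (0.0107) for Wnt4, -0.76 (0.0143) for Lef1 and -1.11 (0.00999) for Pdgfra. It was -2.0 (0.0171) for Lum, -1.30 (0.0135) for Greb1, 1.93 (0.0328) for Fdps and 1.76 (0.0293) for Hsd17b7. It was 1.60 (0.0112) for Gsta3, 0.75 (0.0277) for Gsr and -2.03 (0.0293) for Cyp11b2. None of these 11 genes was called between XX and GDX in WT by limma (5 had an unadjusted p under 0.05).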

How the results depend on the processing

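The 27 called genes tested under every alternative kept their direction. Without single arrays, list medians ran across 0 for X-zone, adipocyte, medulla chromaffin, androgen response, estrogen response and canonical WNT targets. They also did so for extracellular matrix, steroid inactivation and conjugation, mast cell and erythrocyte. Without GDX array 3 more genes were lower than higher in XX. With XX and GDX fitted alone, 69 genes were called, 38 higher and 31 lower in XX, 45 of them among the 118. Against GDX array 4 alone, 13 were called, 11 higher and 2 lower; 9 dimorphic genes stayed called, 37 were called only between GDX and intact XY, and 10 of the 13 kept their direction in knockout arrays. Leaving out single WT arrays gave 53 to 125 called genes, 33 to 67 higher and 20 to 58 lower; 716 to 1256 dimorphic genes, of which 42 to 74 stayed called and 169 to 509 were called only between GDX and intact XY; and 46 to 107 genes with the same direction in knockout arrays. The other fits, filters, probe set rules and normalization gave 86 to 131 called genes and 55 to 78 that stayed called. The replicate numbers do not pair the arrays (correlation of deviations -0.235, 0.006, 0.008 and 0.182 for numbers 1 to 4); with a replicate block 104 genes were called, 58 higher and 46 lower, 98 of them among the 118, and 68 stayed called. Hsd17b3 became called with both groups alone (0.52, adjusted p 0.00914), Abcb1b without GDX array 3 (-0.39, adjusted p 0.0388) and Angptl4 without GDX array 4 (-0.90, adjusted p 0.0159). Several genes not called between XX and GDX turned sign. Against GDX array 4 alone the change became -0.18 for Cd1d1, 0.01 for Acan and Dbi, -0.05 for Scarb1, 0.99 for Pdk4, 0.05 for Angptl4, -0.21 for Hdc, 0.19 for Kit, 0.02 for Cd3e, 0.16 for Ucp1, 0.72 for Cidea, 0.03 for Slc4a1 and 0.17 for Ngfr. Without single arrays it ran from -1.4 to 0.47 for Hamp, -0.25 to 0.09 for Serpina6, -1.28 to 0.11 for Cidea, -0.23 to 0.02 for Dbi, -0.34 to 0.12 for Kit, -0.08 to 0.05 for Slc4a1 and -0.03 to 0.54 for Cyp11b2. The cause was not tested. Signals under 5 limit the size of changes in 10 of the 118 genes, whose mean in XX or GDX lay under that level.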
